A study of Mus musculus with 98 samples.

Results

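The 31 genes described here are genes of astrocyte identity, listed by name with no threshold on these measurements: Aqp4, Slc1a2, Slc1a3, Aldh1l1, Gja1, Gjb6, S100b, Glul, Sox9, Fabp7, Sparcl1, Atp1b2, Slc4a4, Mlc1, Ndrg2, Acsbg1, Slc25a18, Ntsr2, Fgfr3, Aldoc, Mfge8, Cldn10, Ppp1r3c, Slc7a10, Slc6a11, Gjb2, Htra1, Hes5, Id4, Nkain4 and Plpp3. All 31 had a row in each of the 6 tables of RNA-seq counts, which share 24754 gene symbols. Most of the mouse hippocampal cultures and all of the mice had received a virus that raises ACSS2, the enzyme that makes acetyl-CoA from acetate, or a control virus, and the 98 libraries fall into 22 groups. The cultures were primary embryonic hippocampal neurons of strain CD1 in a neuronal medium with B27. One culture table held day 21 neurons with no virus named, 4 libraries with hAD-tau and 3 with PBS. A second held unstimulated neurons given the virus PhP.eB.upACSS2 or the control PhP.eB vector on day 5 and hAD-tau or PBS on day 7, and collected on day 9 or day 21, with 3 libraries in each of the 8 groups. The last culture table held 12 libraries of day 21 neurons of the same 4 kinds (vector or upACSS2, hAD-tau or PBS, 3 of each) that the titles call stimulated; their labels name neither the stimulus nor the strain. The mouse tables held male hippocampus after retro-orbital injection of upACSS2 or vector virus: whole hippocampus of C57BL6 mice of 22 to 23 months (12 and 12 mice), dorsal hippocampus of C57BL6 mice of 10 months (6 and 5), and hippocampus of PS19 mice, a line with a mutant human tau transgene under the mouse prion promoter, at 3.5 months (1 month after injection) and at 8.5 to 9 months (6 months after injection), with 5 mice in each of the 4 groups. The PS19 groups are labelled dorsal hippocampus, except upACSS2 at 1 month, which is labelled whole hippocampus.

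Astrocytes are the glia that clear glutamate and potassium from around synapses, couple to each other through gap junctions, line vessels with endfeet and supply neurons with lactate, glutamine and lipid. They arise from radial glia after neurons do, under Notch and STAT signals that act with the factors SOX9 and NFI, and their transport genes mature late. In a culture started from embryonic neurons in a neuronal medium, astrocytes come from progenitors carried over at plating, and a level of an astrocyte gene in bulk RNA depends both on how many astrocytes there are and on how much of the RNA each makes. Fewer cells and less RNA per cell cannot be told apart in these libraries.

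Libraries held 5075099 to 39985460 counts. Levels are in CPM, counts scaled to a common library size by edgeR within each table, so a level in one table is set beside a level in another only as a description. Acss2 itself read 1488 to 5462 CPM in the upACSS2 cultures against 40.1 to 57.9 in the vector cultures, whereas in the mice the groups lay closer (46.7 to 61.5 against 40.0 to 53.7 in the aged mice, 49.9 to 59.3 against 42.3 to 48.8 at 10 months). In PS19 mice Acss2 read 60.1 to 1465 CPM against 51.5 to 66.3 at 1 month and 44.9 to 237 against 43.1 to 56.0 at 6 months, so some upACSS2 mice did not exceed the vector mice. The treatment field of several groups goes against their titles, among them vector with tau, upACSS2 with PBS, the PS19 upACSS2 mice at 1 month and vector mouse 5 of PS19 at 1 month; groups follow the titles. The labels do not say whether culture replicates came from separate platings, so p-values measure the spread between these samples, which may be technical. Single libraries stood apart for the astrocyte genes, and medians and calls that leaving out 1 library moves by over 1.5 times are given with that range. For alternative fits (other tools, settings or sets of libraries) the share of all genes called is not given. Their counts of members therefore do not show that the members stand out from other genes. Among the aged mice no single mouse was left out. Replicate 3 of the day 21 unstimulated vector PBS group was the highest of its group for 28 of the 31 genes, replicate 3 of the no-virus PBS group was the lowest for all 31, replicate 3 of the stimulated vector tau group was the lowest for 28, and replicate 2 of the 10-month vector mice was the highest for 25. In the no-virus culture, PBS replicate 2 was the highest for 30 and tau replicate 3 the lowest for 27. In the day 21 unstimulated vector tau group, replicate 1 was the lowest for 25 and replicate 2 the highest for 24. Among PS19 mice, replicate 3 of the 1-month upACSS2 group was the highest for 27 and replicate 3 of the 6-month vector group for 23, and replicate 2 of the latter group was the lowest for 24. The libraries named here are not all that were extreme for most members.

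The level of the list was summarised as the mean log2 CPM of the 31 genes in each library, as a description with no test. On day 9 of culture this mean lay between 5.18 and 5.45 in the 12 libraries, and no group stood apart. On day 21 the unstimulated libraries read 5.85 to 7.31, all above every day 9 library. The stimulated ones read 5.48 to 6.72, the no-virus PBS libraries 7.49, 7.14 and 5.46, and the no-virus tau libraries 7.13 to 7.84. The 55 hippocampal libraries lay in the narrow span from 6.77 to 7.38. The list was therefore lowest on day 9, spread most widely between replicate cultures of day 21, and was close to constant across mice of all ages and both viruses.

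**Figure D1:**
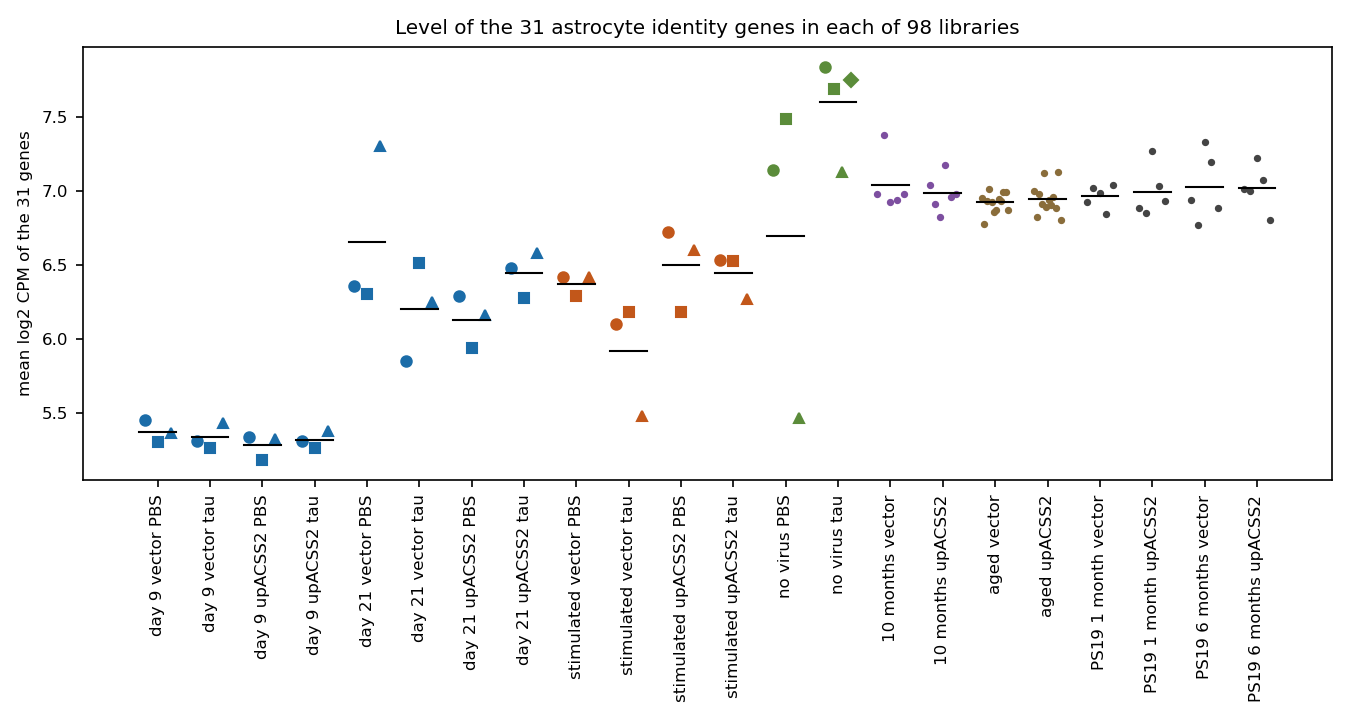
Mean log2 CPM of the 31 astrocyte genes in each library (vertical axis), by group (horizontal axis), where points are libraries, lines are group means and colours are the 6 count tables. The day 9 libraries sit between 5.18 and 5.45, below all unstimulated day 21 libraries (5.85 to 7.31), and the hippocampal libraries sit between 6.77 and 7.38.

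The median coefficient of variation over the members was 6.76% to 7.81% in the 4 day 9 groups, where the median over all genes was 5.49% to 6.72%. On day 21 it was 50.5% in the unstimulated vector PBS group against 17.6% for all genes, 56.0% against 24.1% in the no-virus PBS group, and 30.3% against 12.9% in the stimulated vector tau group. In the other day 21 culture groups it lay between 13% and 26.9%, against 8.72% to 14.1% for all genes. The members' median was above that of all genes in all 10 day 21 culture groups, so replicate cultures differed more in these genes than in a typical gene. In the mice the members varied by 10.8% to 19.5% and all genes by 12.4% to 16.3%, with the members' median the higher one in 3 of the 8 groups.

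To compare genes with each other, CPM was divided by the summed exon length of each gene in kb. In hippocampus the medians of the 8 group means put Sparcl1, a secreted matricellular protein that promotes synapses, at the top with 632 CPM per kb, followed by the glutamine synthetase Glul with 478. The group means of Sparcl1 (510 to 722) and Glul (472 to 631) overlapped. Aldoc, the glycolytic aldolase of astrocytes, read 240.3, the main glutamate transporter Slc1a2 240.2, Ndrg2 231 and the calcium-binding protein S100b 107. The group means of Aldoc (225 to 262) and Slc1a2 (198 to 277) overlapped, as did those of Slc1a2 and Ndrg2 (203 to 261), so these 3 genes had no order beyond their spread. At the bottom were the gap-junction gene Gjb2 with 1.86, the Notch target Hes5 with 3.53 and Sox9 with 8.86 CPM per kb. Sparcl1 and the enzymes and transporter named here therefore led the list in tissue, and Gjb2 and Hes5 were its lowest members. Sox9 (group means of 7.07 to 12.3) overlapped with the next gene, Slc7a10 (8.15 to 11.4).

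In day 21 culture the medians were ordered differently. Sparcl1 (360 CPM per kb) and Fabp7 (355), the fatty acid binding protein of radial glia and immature astrocytes, had the highest medians of the 10 group means, before Aldoc (291) and Glul (264). The group means of the 4 genes overlapped (Fabp7 187 to 658, Aldoc 137 to 542, Glul 183 to 609, and Sparcl1 inside the range of Glul), so they had no order beyond their spread. Relative to hippocampus, the median group mean of Fabp7 was 16.2 times higher in day 21 culture, that of Sox9 3.52 times and that of Hes5 3.49 times. For Fabp7 and Sox9 every day 21 culture group lay above every hippocampal group. For 7 genes every day 21 culture group lay below every hippocampal group. They were Slc7a10, the alanine, serine and cysteine transporter (a ratio of 0.0827), Gjb6 (0.0874), the neurotensin receptor Ntsr2 (0.125), Gjb2 (0.131), S100b (0.212), Slc1a2 (0.442) and Nkain4 (0.540). On day 9, 27 genes were below every hippocampal group, and 3 were above: Fabp7, the GABA transporter Slc6a11 (2.38 times) and Mfge8 (2.24 times), a secreted bridging protein for phagocytosis. Tissue and culture were sequenced and normalised apart, and strain, age and cell mix differ between them, so these ratios describe the data and were not tested.

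**Figure D2:**
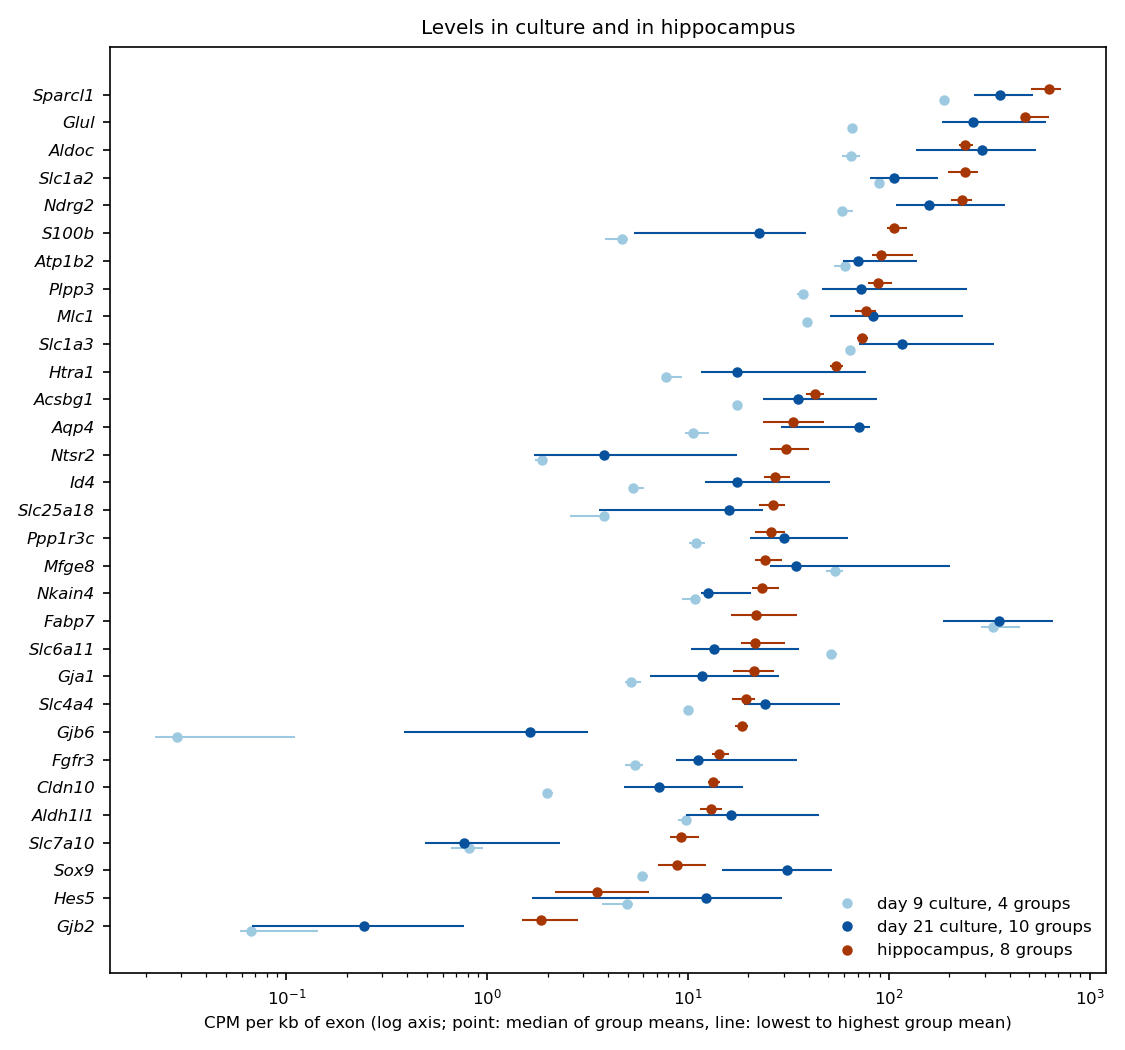
CPM per kb of exon (horizontal log axis) of each of the 31 genes (vertical axis) on day 9 of culture (4 groups), day 21 of culture (10 groups) and in hippocampus (8 groups), where points are medians of group means and bars run from the lowest to the highest group. Fabp7 is 16.2 times higher in day 21 culture than in hippocampus, and Slc7a10 and Gjb6 are at 0.0827 and 0.0874 of the hippocampal level.

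The comparisons of day 21 with day 9 called more members than any other. In 4 comparisons (each virus with PBS and with tau, 3 libraries a side), edgeR's quasi-likelihood test with Benjamini-Hochberg adjustment over all genes tested called, at 0.05, 26 of 31 members higher and 2 lower in vector PBS cultures, where 57.7% of all genes were called. It called 19 higher and 2 lower in vector tau cultures (52.6% of all genes), 19 higher and 3 lower in upACSS2 PBS cultures (54.3%), and 24 higher and 2 lower in upACSS2 tau cultures (53.6%). The median log2 fold change of the members was 1.40, 0.95, 0.86 and 1.11, while that of all genes tested was 0.05, 0.04, 0.03 and 0.01. Without replicate 3 of the day 21 vector PBS group the first of these medians was 0.83. These tests used 1 estimate of spread per gene over all 24 unstimulated libraries. The members' median coefficient of variation was 6.76% to 7.81% in the day 9 groups and 15.9% to 50.5% in the unstimulated day 21 groups. The standard errors and p-values of the day comparisons therefore do not follow the spread of each day. Across the 4 comparisons, 18 members rose in all 4, Sparcl1 rose in 3, Slc1a3, Aldh1l1, Gja1, Slc25a18 and Gjb2 rose in 2, and Fabp7, Atp1b2 and Nkain4 rose in 1. Slc1a2 passed in none, Slc7a10 fell in 1 (upACSS2 PBS), and Slc6a11 and Mfge8 fell in all 4.

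**Figure D3:**
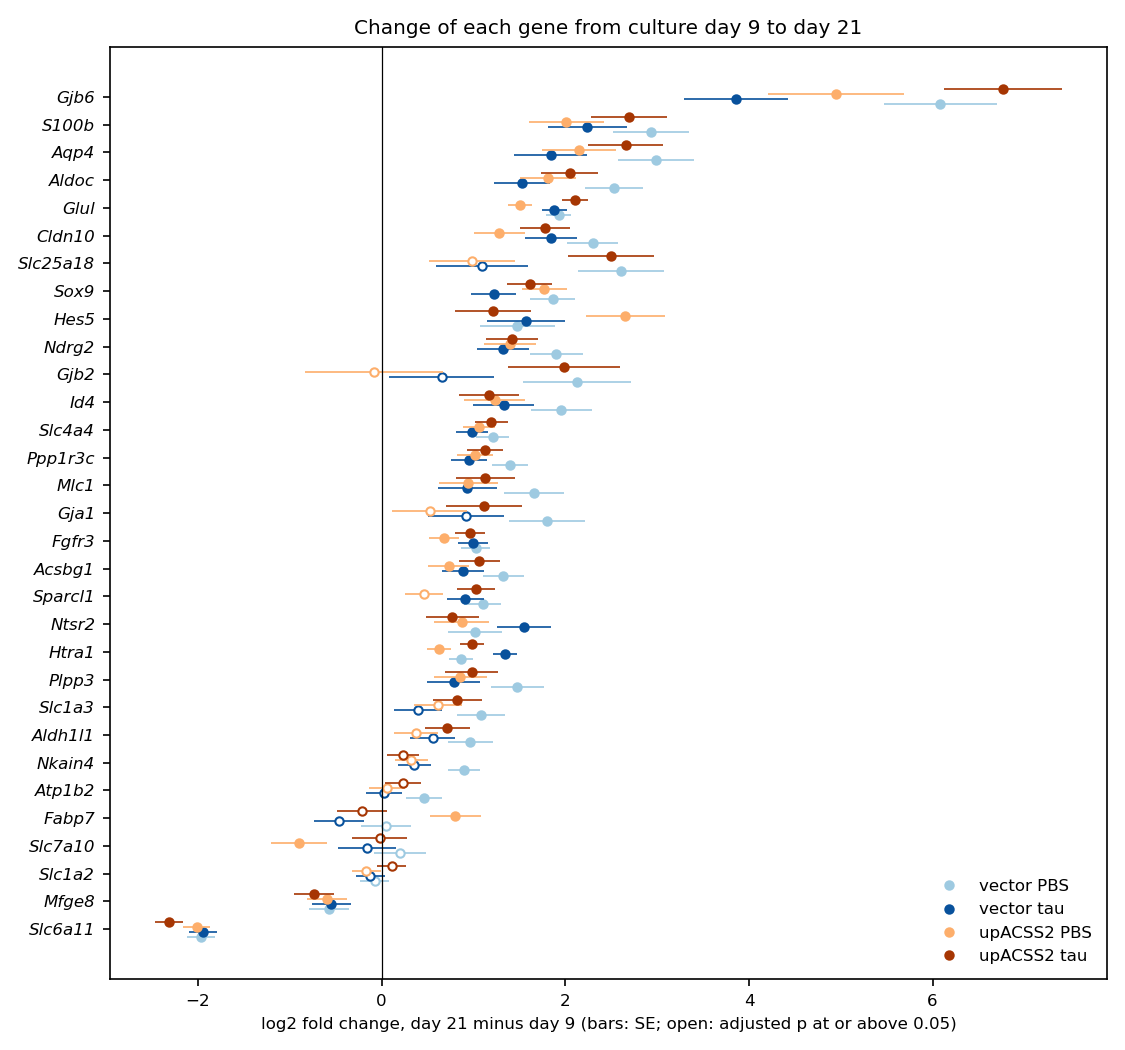
Log2 fold change from day 9 to day 21 (horizontal axis, with the standard error as bars) for each of the 31 genes (vertical axis) in the 4 combinations of virus and treatment, where filled points passed edgeR's test at an adjusted p of 0.05. Gjb6 lies farthest to the right (3.85 to 6.76) and Slc6a11 farthest to the left (-2.31 to -1.95).

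Among the genes for water and ion handling, Aqp4, the water channel of the endfeet, read 65.3, 52.1 and 66.6 CPM in day 9 vector PBS cultures and 393, 248 and 820.2 on day 21, a log2 fold change of 2.99 ± 0.41 SE (edgeR adjusted p = 4.28e-06). In the other 3 combinations its log2 fold change was 1.84 to 2.66. Every day 21 library was above every day 9 library. Mlc1, a membrane protein of astrocyte junctions, Slc4a4, a sodium bicarbonate cotransporter, and Cldn10, a claudin, also rose in all 4 comparisons, with log2 fold changes of 0.93 to 1.66, 0.98 to 1.21 and 1.28 to 2.30. Atp1b2, a sodium pump subunit, passed in 1 of the 4, and its log2 fold changes were 0.03 to 0.46.

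Of the glutamate and amino acid carriers, the 2 best known uptake genes differed. Slc1a3 (GLAST), which astrocytes make early, read 566, 514 and 557 CPM on day 9 and 785, 727 and 1954 on day 21 in vector PBS cultures, and its log2 fold changes of 0.40 to 1.08 passed in 2 of 4 comparisons. Slc1a2 (GLT-1), which astrocytes make late and which some neurons also transcribe, read 1205, 1080.3 and 1241 CPM and then 1069.9, 787 and 1489. The groups overlapped, and its log2 fold change was between -0.16 and 0.11 in the 4 comparisons, none of which passed. For vector PBS the approximate 95% interval, from the normal distribution, was -0.39 to 0.24. Glul, which turns the glutamate taken up into glutamine, went from 236, 219.8 and 234 CPM to 779, 819 and 1029.8, a log2 fold change of 1.93 ± 0.14 SE (edgeR adjusted p = 5.28e-10), with no overlap. Slc25a18, a mitochondrial glutamate carrier, went from 7.67, 6.82 and 7.70 to 44.0, 19.0 and 72.3 CPM, but its 4 log2 fold changes ran from 0.99 to 2.61 and 2 of them passed.

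The GABA transporter Slc6a11 (GAT-3) went the other way. It read 249, 255 and 269 CPM on day 9 and 49.3, 76.9 and 71.0 on day 21 in vector PBS cultures, a log2 fold change of -1.97 ± 0.15 SE (edgeR adjusted p = 1.59e-09). In the other 3 combinations it fell by 1.95 to 2.31 on the log2 scale, and every day 21 library lay below every day 9 library. Mfge8 read 289.7, 251 and 292 CPM and then 129, 161 and 269, and fell by 0.55 to 0.74 in the 4 comparisons. Replicate 3 of the day 21 group, the library that was highest for most members, overlapped the day 9 values of Mfge8.

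The 3 connexins, which form the gap junctions between astrocytes, started from very different levels. Gja1 (connexin 43) read 64.9, 52.8 and 62.5 CPM on day 9 and 91.0, 85.0 and 451 on day 21 in vector PBS cultures, and rose in 2 of the 4 comparisons (log2 fold changes of 0.53 to 1.80). Gjb6 (connexin 30) was nearly absent on day 9, with 0 to 6 counts per library, and read 5.64, 4.0 and 12.7 CPM on day 21 in vector PBS cultures. As a ratio of summed counts scaled for depth this was 85.3-fold (95% counting interval 41.2 to 213), and 16.5-fold (9.70 to 30.6), 35.8-fold (13.7 to 133) and 128-fold (54.7 to 397) in vector tau, upACSS2 PBS and upACSS2 tau cultures. These intervals cover counting error only. Gjb2 (connexin 26), which lies beside Gjb6 on chromosome 14, had 10 to 16 summed counts on day 9 and 11 to 57 on day 21 in the 4 combinations. Its ratios of 5.14 (2.60 to 11.3) and 4.46 (2.18 to 10.0) in vector PBS and upACSS2 tau cultures were above 1, and those of 1.72 (0.934 to 3.31) and 1.03 (0.396 to 2.70) in the other 2 could not be told from 1.

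The promoters shown are those of 3 of the 4 members with the largest median absolute log2 fold changes over the 9 day 21 tests of tau or virus (Slc25a18 1.59, Gjb6 1.17, S100b 0.93; the promoter of Aqp4, at 0.96, is not shown). They are from RefSeq on GRCm38.p6 and run 5′ to 3′ on the gene's strand, and end before the annotated gene start. Capitals mark every match to motifs of astrocyte regulators searched on both strands: the NFI site TTGGC, the SOX core ACAAAG, the STAT site TTCNNNGAA, the RBPJ site TGGGAA and the HES N-box CACNAG. Slc25a18, of chr6:120773578-120794336, is shown with the 60 bases at chr6:120773518-120773577 (plus strand). Gjb6, of chr14:57123303-57133611, is shown with the 250 bases at chr14:57133612-57133861 (minus strand). S100b, of chr10:76253853-76261159, is shown with the 250 bases at chr10:76253586-76253835 (plus strand).
Slc25a18: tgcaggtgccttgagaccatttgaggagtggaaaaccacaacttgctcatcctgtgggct
Gjb6: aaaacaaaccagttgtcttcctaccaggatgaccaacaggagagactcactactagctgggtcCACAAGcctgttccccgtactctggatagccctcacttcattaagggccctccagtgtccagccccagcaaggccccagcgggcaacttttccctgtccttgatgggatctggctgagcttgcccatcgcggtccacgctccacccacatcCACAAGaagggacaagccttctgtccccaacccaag
S100b: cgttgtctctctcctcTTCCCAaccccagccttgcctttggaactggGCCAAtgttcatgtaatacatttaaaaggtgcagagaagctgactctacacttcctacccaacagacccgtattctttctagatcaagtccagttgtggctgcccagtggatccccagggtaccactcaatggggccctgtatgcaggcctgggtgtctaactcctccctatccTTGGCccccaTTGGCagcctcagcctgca
The Slc25a18 stretch held no match, Gjb6 held 2 N-boxes, and S100b held 3 NFI sites and 1 RBPJ match. Of the 31 genes, 26 had a RefSeq promoter (32 promoters in all). The NFI site was in 17 of the 32 (53.1%) against 46.7% of all 32851 promoters, the RBPJ site in 13 (40.6%) against 25.6%, the N-box in 15 (46.9%) against 42.5%, the STAT site in 4 (12.5%) against 8.30%, and the SOX core in 2 (6.25%) against 18.7%. The full NFI palindrome was in none of the 32 and in 0.0365% of all. A match is a description of the letters in a window and not of a bound site.

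Metabolic and structural genes of the mature cell made up most of the rest. S100b went from 7.57, 6.63 and 8.30 CPM to 34.6, 47.2 and 89.6 in vector PBS cultures, a log2 fold change of 2.93 ± 0.41 SE (edgeR adjusted p = 5.35e-06), and by 2.01 to 2.69 in the others. Aldoc went from 233, 190.4 and 231 to 1072, 608 and 2102 CPM (2.53 ± 0.31 SE, edgeR adjusted p = 9.91e-07). Both groups of values were fully apart for both genes. Aldh1l1, the folate enzyme used to mark astrocytes, moved less: it read 42.8, 45.6 and 48.8 CPM and then 69.2, 50.3 and 147, and rose in 2 of 4 comparisons (0.37 to 0.97). Ndrg2 (1.32 to 1.90), the acyl-CoA synthetase Acsbg1 (0.73 to 1.33), the glycogen-targeting phosphatase subunit Ppp1r3c (0.95 to 1.40), the lipid phosphatase Plpp3 (0.79 to 1.48) and the secreted protease Htra1 (0.62 to 1.34) rose in all 4.

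The transcription factors and receptors rose as well. Sox9, a factor that specifies glia, read 26.2, 22.4 and 25.9 CPM on day 9 and 60.8, 62.7 and 147 on day 21 in vector PBS cultures and rose by 1.22 to 1.86 on the log2 scale in the 4 comparisons. Hes5, the Notch effector that keeps progenitors undifferentiated, read 5.41, 4.82 and 4.98 CPM and then 35.4, 27.9 and 32.7 in upACSS2 PBS cultures, a log2 fold change of 2.65 ± 0.43 SE (edgeR adjusted p = 3.12e-05). Its range over the 4 was 1.21 to 2.65, and in vector PBS cultures the library that was highest for the other members, replicate 3, was its lowest (17.5, 35.9 and 7.63 CPM). Id4, an inhibitor of basic helix-loop-helix factors (1.17 to 1.96), the growth factor receptor Fgfr3 (0.68 to 1.02) and Ntsr2 (0.77 to 1.55) rose in all 4. Fabp7 was already at 322 to 595 CPM on day 9, and its log2 fold changes of -0.46 to 0.80 passed in 1.

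Other glia moved in the same comparisons. In each of the 4, all 7 tested genes of oligodendrocyte precursors rose (median log2 fold changes of 4.92 to 6.88), with their summed level at 157 to 299 CPM on day 9 and 1001 to 2216 on day 21. Of 40 further astrocyte genes 20 to 30 rose, among them Gfap (4.07 ± 0.49 SE in vector PBS) and Gpr37l1 (3.89 ± 0.29 SE), and of 30 genes of reactive astrocytes 16 to 25 rose. Gfap is in both of these lists, so they are not separate. Neuron markers split, with 4 to 8 of 16 higher and 4 to 6 lower and medians of 0.17 to 0.52, and their sum went from 13089 to 14113 CPM on day 9 to 7852 to 14846 on day 21. Microglia (20.1 to 57.2 CPM summed over 14 genes) and endothelial and mural genes (21.1 to 51.2 CPM over 13) stayed low on both days. The part that these other lists have in the members' change was not tested.

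**Figure D4:**
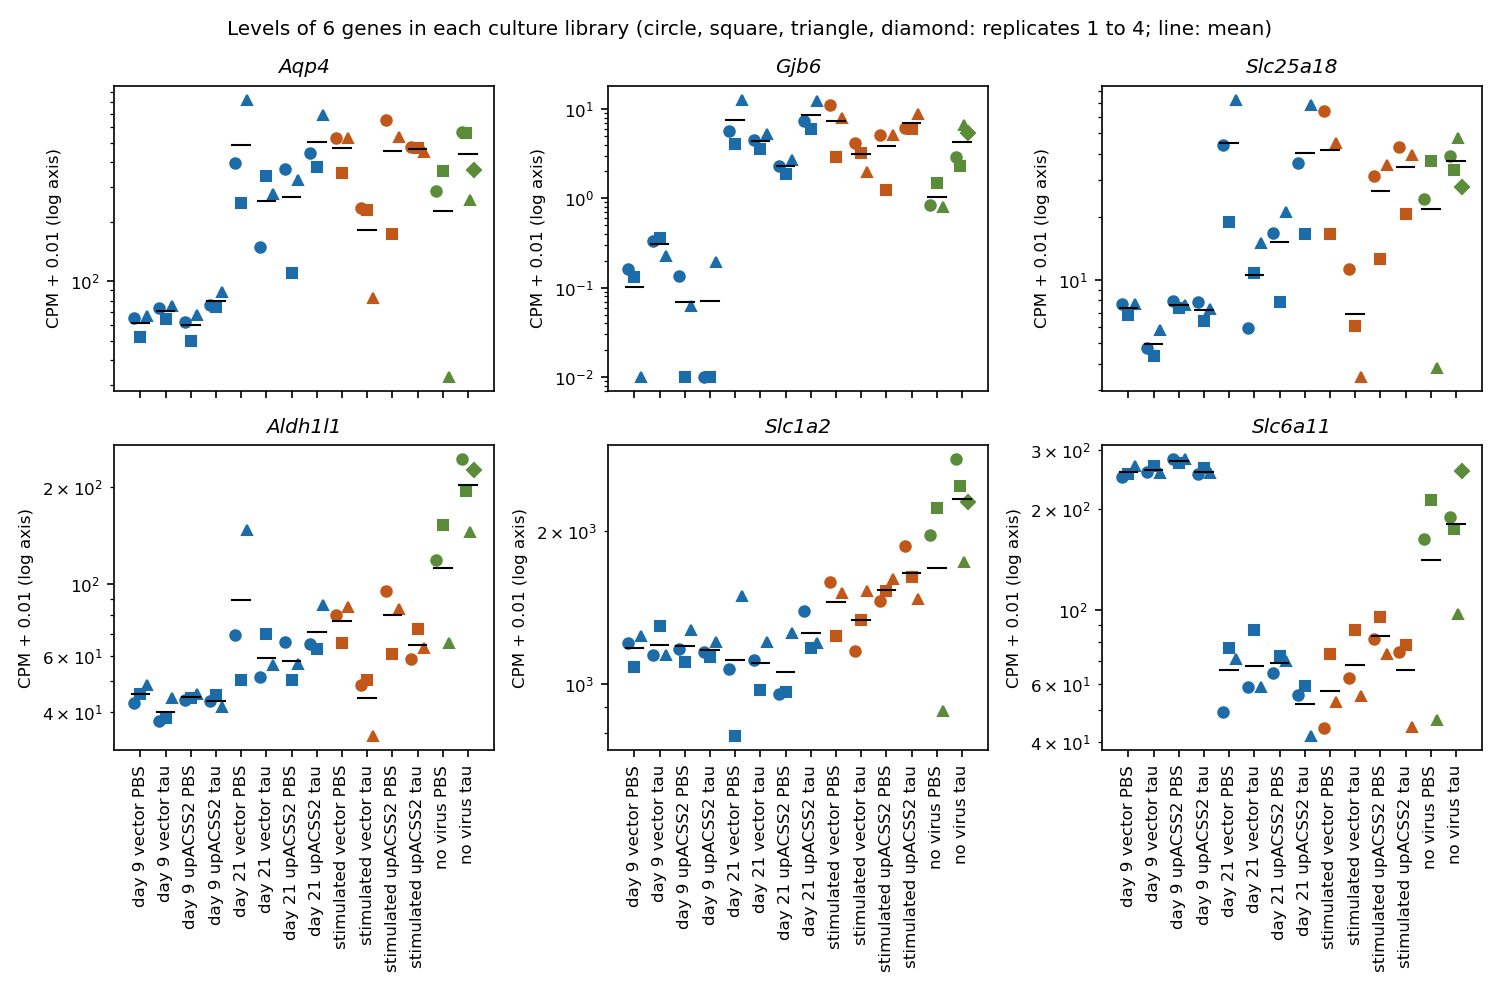
CPM plus 0.01 (vertical log axis) of Aqp4, Gjb6, Slc25a18, Aldh1l1, Slc1a2 and Slc6a11 in each culture library, by group (horizontal axis), where marker shapes are replicate numbers and lines are group means. Slc6a11 is at 249 CPM or more in all day 9 libraries and at 86.7 CPM or less in all unstimulated day 21 libraries, and Slc1a2 overlaps between the 2 days.

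On day 9, after tau was added on day 7, differences in the list were small, and a fit over all 24 unstimulated libraries called no member in any of the 4 comparisons of tau or virus. In the fit to the 12 day 9 libraries, 29 of the 31 genes passed the filter on low counts (Gjb6 and Gjb2 did not). In vector cultures, tau against PBS, 5 of 29 members passed, 4 lower and 1 higher, with 4.28% of all genes called. The median of the members was -0.12 (-0.18 to -0.078 on leaving out 1 library) and that of all genes 0.00. Slc25a18 read 7.67, 6.82 and 7.70 CPM with PBS and 4.75, 4.32 and 5.80 with tau, a log2 fold change of -0.60 ± 0.13 SE (edgeR adjusted p = 0.0106). Fabp7 read 595, 517 and 585 CPM and 372, 347 and 482 (-0.50 ± 0.11 SE, edgeR adjusted p = 0.0104). In both genes the tau libraries were all below the PBS libraries. Fgfr3 fell by 0.31 on the log2 scale (edgeR adjusted p = 0.0149), from 42.6, 38.9 and 47.0 CPM to 34.3, 32.3 and 37.4, and Ndrg2 by 0.19 (edgeR adjusted p = 0.0297). Atp1b2 rose by 0.21 ± 0.04 SE (edgeR adjusted p = 0.0114), from 221, 212 and 219 to 248, 256 and 252 CPM. These calls rest on few libraries: none was left without tau replicate 2 or without PBS replicate 1, 1 without tau replicate 1, 7 without PBS replicate 2 and 11 without tau replicate 3. In the same comparison 3 of 5 tested oligodendrocyte precursor genes fell, with a median of -0.72.

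With PBS on day 9, upACSS2 against vector, 7 of 29 members passed, 6 lower and 1 higher, where 10.2% of all genes were called. The median was -0.06 (-0.12 without upACSS2 replicate 3), against 0.00 for all genes. This comparison uses the vector PBS libraries that also serve as the control for tau, so the members it has in common with that test (Fabp7, Ndrg2, Atp1b2) are not a second observation. Fabp7 read 408, 322 and 352 CPM in the upACSS2 libraries against 595, 517 and 585 in the vector ones (-0.65 ± 0.11 SE, edgeR adjusted p = 0.0013). Hes5 fell by 0.54 on the log2 scale (edgeR adjusted p = 0.0368), with 5.41, 4.82 and 4.98 against 8.34, 5.37 and 7.94 CPM where 1 vector library lay within the upACSS2 values. Htra1, Mfge8, Nkain4 and Ndrg2 fell by 0.33, 0.29, 0.27 and 0.26, and Atp1b2 rose by 0.18 (edgeR adjusted p of 0.00317 to 0.0437 for these 5). Of 5 tested oligodendrocyte precursor genes 4 fell (median -0.72). The members called numbered 3 without upACSS2 replicate 2, 4 without upACSS2 replicate 3 and 3 without vector PBS replicate 1.

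The other 2 day 9 comparisons called 1 member each. In upACSS2 cultures, tau against PBS, Aqp4 rose by 0.40 ± 0.09 SE (edgeR adjusted p = 0.048), from 62.6, 50.3 and 67.5 to 76.1, 74.2 and 88.7 CPM, where 0.349% of all genes were called. The call was lost when either of PBS replicates 1 and 2 or any of the 3 tau libraries was left out. With tau, upACSS2 against vector, Slc25a18 rose by 0.54 ± 0.13 SE (edgeR adjusted p = 0.0448), from 4.75, 4.32 and 5.80 CPM to 7.89, 6.34 and 7.24, where 0.692% of all genes were called. It was lost without any 1 of the upACSS2 tau libraries or without vector tau replicate 1 or 2.

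On day 21 without stimulation edgeR called no member in any of the 4 comparisons of tau or virus, with all 31 members tested. For tau in vector cultures, where 0% of 14639 genes were called, 6 members and 1361 genes had an unadjusted p under 0.05, and neither DESeq2 nor voom called a member. Of the 31 log2 fold changes 28 were negative and the median was -0.57, with -0.01 for all genes. The 3 members of largest change were Slc25a18, Gja1 and Aldoc. Slc25a18 read 44.0, 19.0 and 72.3 CPM with PBS and 5.87, 10.8 and 15.1 with tau (-2.11 ± 0.60 SE, edgeR adjusted p = 0.53), with no overlap. Gja1 read 91.0, 85.0 and 451 and 64.6, 124 and 96.8 (-1.16 ± 0.53 SE), and Aldoc 1072, 608 and 2102 and 445, 614 and 698 (-1.12 ± 0.39 SE). For Gja1, PBS replicate 3 alone set the PBS group above the tau group. Without that library the median of the members was -0.01 and the log2 fold changes of Gja1, Slc25a18 and Aldoc were 0.12, -1.57 and -0.51, and without any other library the median lay between -0.77 and -0.43. Groups that did not overlap, with tau lower, were seen for 3 members (Slc25a18, Slc7a10, Nkain4), where 4.56% of all genes were of that kind. In PBS replicate 3 the summed reactive astrocyte genes read 16136 CPM, against 5830.5 and 2839 in replicates 1 and 2, and the summed neuron markers 7852, against 13600 and 8875. The part of these in the comparison was not tested. Reads of the ribosomal RNA gene Rn45s also differed between libraries. Rn45s held 10.98% of counts in vector PBS replicate 2, 4.10% in vector tau replicate 2 and 7.93% in upACSS2 PBS replicate 1. In the other unstimulated day 21 libraries it held 0.418% to 1.89%. Each unstimulated day 21 comparison of tau or virus includes a library with a high share, and the effect of this on the members was not tested.

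For upACSS2 against vector with PBS, 0.0137% of all genes and no member passed, 12 members and 16.6% of all genes had an unadjusted p under 0.05, and the median was -0.64. DESeq2 called 4 members, voom called none, and a fit over all 24 unstimulated libraries called 10. This comparison has the same vector PBS control as the last one: without replicate 3 of that group the median was -0.13, and the log2 fold changes of Gjb6, Slc25a18 and Gja1 were -1.07, -1.05 and -0.17. Gjb6 read 2.29, 1.86 and 2.70 CPM in upACSS2 PBS libraries against 5.64, 4.0 and 12.7 in vector ones (-1.73 ± 0.42 SE, edgeR adjusted p = 0.147), with no overlap. Slc25a18 read 16.7, 7.83 and 21.1 CPM against 44.0, 19.0 and 72.3 (-1.59 ± 0.59 SE), and 1 pair of libraries overlapped. Gja1 read 89.0, 70.0 and 75.0 against 91.0, 85.0 and 451 (-1.45 ± 0.54 SE). Gjb2 had the largest value of the list, -2.02 ± 0.65 SE (edgeR adjusted p = 0.206), on few counts: 0.246, 0.0432 and 0.200 against 0.589, 0.385 and 1.00 CPM. Members whose upACSS2 libraries were all lower numbered 7 (Gjb6, Glul, Cldn10, Slc7a10, Gjb2, Htra1, Nkain4), where 9.33% of all genes were of that kind.

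In upACSS2 cultures on day 21, tau against PBS, 0% of all genes and no member passed (6 members and 931 genes at an unadjusted p under 0.05; DESeq2 called 1 member, voom 0), and 26 of 31 log2 fold changes were positive (median 0.26). Gjb6 read 2.29, 1.86 and 2.70 CPM with PBS and 7.37, 6.02 and 12.2 with tau (1.92 ± 0.42 SE, edgeR adjusted p = 0.73), with no overlap. Gjb2 followed on few counts, with 0.246, 0.0432 and 0.200 and 0.591, 0.551 and 0.655 CPM (1.86 ± 0.67 SE, edgeR adjusted p = 0.762) and no overlap. Slc25a18 (1.43, groups overlapping) and Aqp4 (0.93, no overlap) had the next largest values. Aqp4 read 368, 109.8 and 324 and then 443, 378 and 691 CPM. With tau, upACSS2 against vector, 0.0273% of all genes and no member passed (4 members and 10.7% of all genes at an unadjusted p under 0.05, DESeq2 and voom 0), with 24 of 31 positive and a median of 0.21. The median was 0.056 without vector tau replicate 1 and 0.41 without vector tau replicate 2. Slc25a18 read 36.0, 16.6 and 68.5 CPM against 5.87, 10.8 and 15.1 (1.95 ± 0.60 SE, edgeR adjusted p = 0.304), and all upACSS2 libraries were above all vector libraries.

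Among stimulated neurons, tau against PBS in vector cultures called 3 of 31 members, where 3.02% of all genes were called. Slc25a18 fell, from 64.0, 16.6 and 44.9 CPM with PBS to 11.3, 6.01 and 3.44 with tau, a log2 fold change of -2.60 ± 0.56 SE (edgeR adjusted p = 0.0392). Aldh1l1 fell, from 80.2, 65.7 and 84.7 to 48.7, 50.4 and 33.7 CPM (-0.79 ± 0.18 SE, edgeR adjusted p = 0.0447). Ntsr2 rose, from 3.12, 7.12 and 5.83 to 13.7, 18.1 and 11.6 CPM (1.41 ± 0.34 SE, edgeR adjusted p = 0.0491). In each of the 3 genes the groups did not overlap. All 3 adjusted p-values lie just under 0.05, and the count depended on the fit: DESeq2 called 9 members, voom 15, a fit with the replicate number as a block 4, and a fit with only these 6 libraries 0. The share of all genes called by each of these fits is not given, so their counts cannot be set against it.

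Of the 31 log2 fold changes in that comparison 23 were negative, with a median of -0.36 (0.00 for all genes), and 17 had an unadjusted p under 0.05, as had 24.3% of all genes. The tau libraries were all below the PBS libraries for 15 members, among them Aqp4 (524, 352 and 528 against 233, 228 and 82.4 CPM), S100b, Aldoc and Glul, where 13.1% of all genes were of that kind. Replicate 3 of the tau group was the lowest of its group for 28 members. The calls were 0 without tau replicate 1, tau replicate 3, PBS replicate 1 or PBS replicate 3, 8 without tau replicate 2 and 6 without PBS replicate 2, and the median lay between -0.58 (without tau replicate 2) and -0.26 (without tau replicate 3) in these 6 fits. In the same comparison 7 of 41 further astrocyte genes fell and none rose (Gfap -1.70, Kcnj10, a potassium channel, -1.53), and 5 of 31 reactive astrocyte genes fell and 1 rose, with a median of -1.04. Gfap belongs to both lists. Summed reactive genes read 7163, 3804 and 6946 CPM with PBS and 2624, 2477 and 1171 with tau. Oligodendrocyte precursor genes (median 0.00) and neuron markers (median 0.01) had no member called.

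In stimulated upACSS2 cultures tau called no member, where 0.208% of all genes were called (1 member and 14.3% of all genes at an unadjusted p under 0.05; DESeq2 and voom 0), and the median was -0.15, with -0.28 without tau replicate 2 and -0.037 without tau replicate 3. Aqp4 read 652, 173 and 535 CPM with PBS and 474, 469 and 445 with tau, and PBS replicate 2 lay far below the other 5 libraries. With PBS, upACSS2 against vector called none, again with 0.208% of all genes called (5 members and 15.9% of all genes at an unadjusted p under 0.05, DESeq2 2, voom 5), and the median was 0.25, with 0.11 without upACSS2 replicate 1 and 0.34 without upACSS2 replicate 2. Ntsr2 was at 13.1, 13.7 and 10.8 CPM against 3.12, 7.12 and 5.83 (1.21 ± 0.34 SE, edgeR adjusted p = 0.144), with no overlap.

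With tau, most members had a higher mean in stimulated upACSS2 cultures than in vector cultures, although none passed edgeR's test. Of all genes 0.937% were called, 20 of the 31 members and 20.4% of all genes had an unadjusted p under 0.05, and DESeq2 called 5 and voom 2. With the replicate number as a block, edgeR called 2, among them Slc25a18 (edgeR adjusted p = 0.0146). In 27 of 31 members the upACSS2 mean was higher, with a median of 0.52. Slc25a18 read 43.0, 20.7 and 39.5 CPM against 11.3, 6.01 and 3.44 (2.33 ± 0.56 SE, edgeR adjusted p = 0.0664). Aqp4 read 474, 469 and 445 against 233, 228 and 82.4 (1.35 ± 0.43 SE, edgeR adjusted p = 0.117), and Gjb6 6.19, 5.99 and 8.84 against 4.16, 3.25 and 1.97 (1.17 ± 0.53 SE). In all 3 genes the groups did not overlap, as in 15 members in all, where 12.4% of all genes had upACSS2 libraries that were all higher. The vector tau libraries of this comparison are the same that were low against PBS, so the 2 comparisons are not independent. Without vector tau replicate 2 edgeR called 4 members. Without vector tau replicate 3, the lowest library for most members, the median was 0.34 and the log2 fold change of Slc25a18 was 2.01.

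The difference between the tau effects in upACSS2 and vector cultures was tested directly as an interaction. No member passed, with 0% of 14939 genes called (7 members and 2135 genes at an unadjusted p under 0.05; DESeq2 and voom 0). The median difference was 0.23, with 0.075 without vector tau replicate 3 and 0.41 without vector tau replicate 2. The largest were Slc25a18 with 2.98 ± 0.75 SE (edgeR adjusted p = 0.233), Gjb6 with 2.09 ± 0.74 SE and Ntsr2 with -1.55 ± 0.47 SE. With the replicate number as a block, edgeR called 2 members, Slc25a18 (2.87, edgeR adjusted p = 0.0322) and Ntsr2 (-1.67, edgeR adjusted p = 0.045). Hes5 read 1.44 to 6.14 CPM in all 12 stimulated libraries and 7.63 to 35.9 in the 12 unstimulated day 21 libraries. As these are separate tables, that gap was not tested.

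In the no-virus culture, tau against PBS had the opposite sign. All 31 log2 fold changes were positive, with a median of 0.57 (0.01 for all genes), but no member and 0% of 16341 genes passed (6 members and 2272 genes at an unadjusted p under 0.05; DESeq2 called 2 members and voom 3). Gjb6 read 0.843, 1.46 and 0.796 CPM with PBS and 2.92, 2.31, 6.61 and 5.42 with tau (2.01 ± 0.47 SE, edgeR adjusted p = 0.306). S100b read 8.94, 14.2 and 0.868 and 20.7, 26.4, 8.55 and 27.1 CPM (1.38 ± 0.80 SE), and Slc7a10 1.69, 3.08 and 0.977 and 3.92, 3.32, 5.66 and 6.48 (1.31 ± 0.44 SE). The groups overlapped for S100b and not for the other 2. Tau libraries were all above PBS libraries for 7 members (Gjb6, Glul, Sox9, Atp1b2, Ppp1r3c, Slc7a10, Gjb2), where 6.91% of all genes were of that kind.

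PBS replicate 3 of that culture was low in glial genes: Aqp4 was at 32.9 CPM against 285 and 358 in replicates 1 and 2, the summed oligodendrocyte precursor genes were at 93.2 against 1846 and 2242, and neuron markers were at 9984 against 5711 and 5259. Without it, 25 of 31 log2 fold changes were positive, the median was 0.19, and Gjb6, S100b and Slc7a10 read 1.78, 0.79 and 0.93 on the log2 scale, and without PBS replicate 2 the median was 0.89. With replicate number as a block (3 pairs) no member was called and the median was 0.76. In the tau comparison neuron markers had a median of -0.76 and oligodendrocyte precursor genes 1.53, none of them called, and microglia genes summed to 67.0 to 698 CPM, above the 20.1 to 57.2 of the virus-treated cultures. Their part in the members' difference was not tested.

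**Figure D5:**
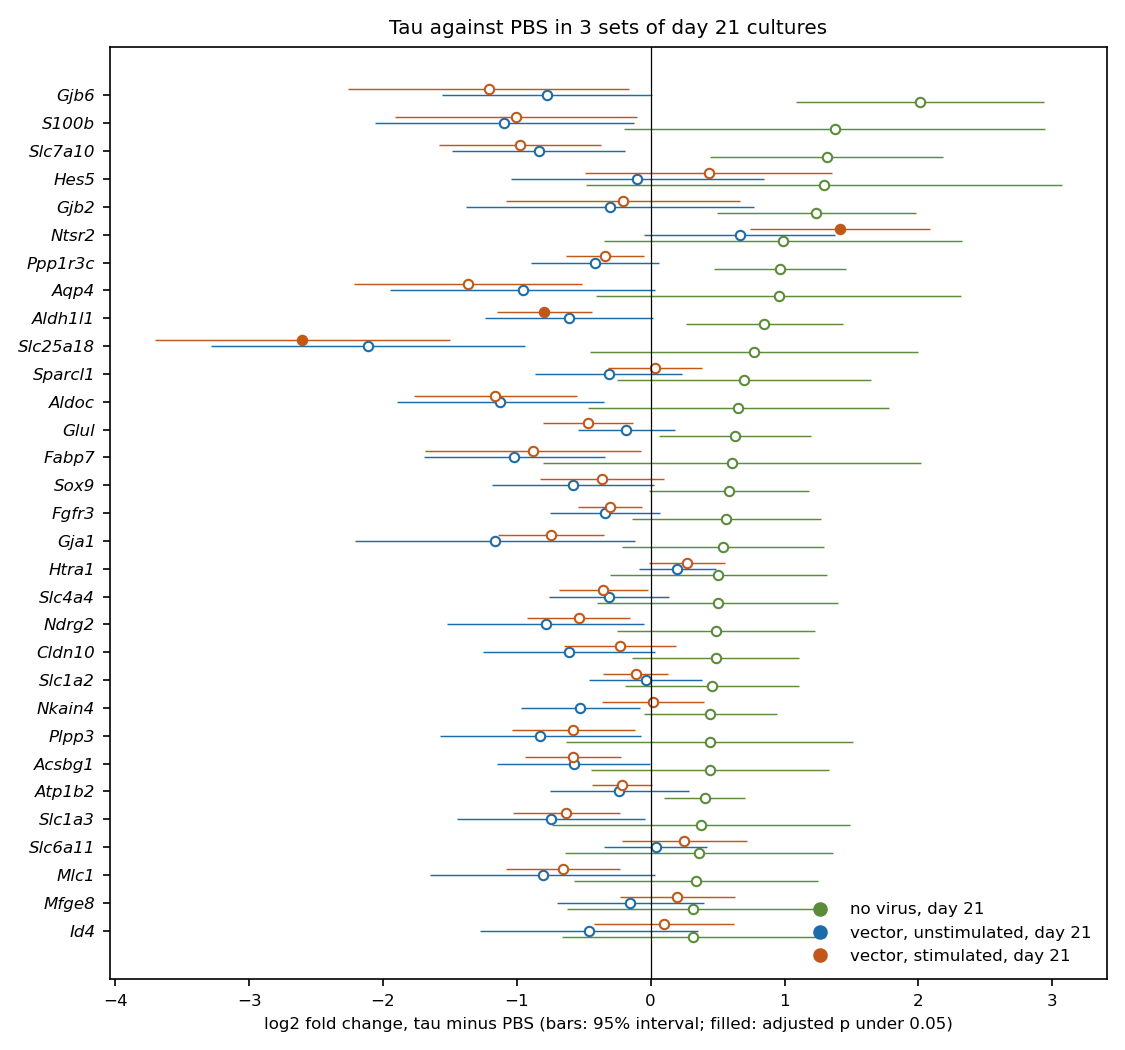
Log2 fold change of tau against PBS (horizontal axis, with approximate 95% intervals as bars) for the 31 genes (vertical axis) in the no-virus culture, the unstimulated vector culture and the stimulated vector culture of day 21, where filled points passed edgeR's test. The bars use the normal distribution and are narrower than the test allows, so a bar clear of no change is not a call. The no-virus values are all positive (median 0.57), and the medians of the vector cultures are -0.57 and -0.36.

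Earlier results of these data had shown tau effects of opposite sign in the no-virus and stimulated vector cultures. The test of their difference was chosen for that reason, so its calls are not independent evidence of a difference. The tau effect of the no-virus culture minus that of the stimulated vector culture was tested in one fit over both tables, which have no library in common. It was positive for 30 of 31 members (median 0.99, against -0.03 for all genes) and passed for 5, where 5.98% of all genes were called; 15 members and 28.5% of all genes had an unadjusted p under 0.05. The median was 0.54 without no-virus PBS replicate 3 and 1.35 without no-virus PBS replicate 2. The 5 were Slc25a18 (3.36 ± 0.91 SE, edgeR adjusted p = 0.0435), Gjb6 (3.20 ± 0.80 SE, edgeR adjusted p = 0.0367), Slc7a10 (2.27 ± 0.54 SE, edgeR adjusted p = 0.0347), Aldh1l1 (1.62 ± 0.36 SE, edgeR adjusted p = 0.0308) and Ppp1r3c (1.29 ± 0.29 SE, edgeR adjusted p = 0.0328). Aldh1l1, for instance, was at 118, 153 and 65.8 CPM with PBS and 243, 194, 145 and 226 with tau in the no-virus culture. DESeq2 called 9 and voom 15. Same-numbered samples deviated together in both tau comparisons, but no fit with the replicate number as a block was run for their difference. The calls numbered 0 without no-virus tau replicate 1, stimulated vector tau replicate 3, or stimulated vector PBS replicate 1 or 3. They numbered 1 without no-virus PBS replicate 3 or stimulated vector tau replicate 1, 2 without no-virus tau replicate 2, 3 without no-virus tau replicate 4 or stimulated vector tau replicate 2, and 16 without no-virus PBS replicate 2. Reactive astrocyte genes (13 of 31 higher, 1 lower) and neuron markers (4 of 16 lower, median -0.75) differed as well. Virus, stimulation, table and culture batch cannot be told apart in this comparison.

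In the mice, upACSS2 virus called no member at any age. In the aged mice 0% of 15157 genes passed, 1 member and 846 genes had an unadjusted p under 0.05, DESeq2 and voom called 0 and 0 members, and the median was 0.04. The largest change was that of Gjb2, with 3.21, 5.98 and 11.9 CPM (lowest, median, highest of 12) under upACSS2 and 3.47, 4.57 and 8.17 under vector (0.44 ± 0.21 SE, edgeR adjusted p = 0.879). S100b was at 121, 161 and 184 CPM against 117, 179.9 and 242 (-0.18 ± 0.10 SE). The groups overlapped throughout. Aqp4, by comparison, was at 115, 159 and 202 CPM under upACSS2 and 105, 149 and 184 under vector. Ntsr2 set mice 1 to 3 of each group apart from the rest. Under upACSS2 it read 98.5 to 110 CPM in them and 66.0 to 85.3 in the others, and under vector 101 to 106 and 66.2 to 77.3. The aged values given here take no account of that split. In the aged mice all 8 fibroblast and meningeal genes were higher under upACSS2 (median 0.71). All 13 endothelial and mural genes were higher as well (median 0.32), and none of either list was called. Their part in the change of Gjb2 was not tested. At 10 months 0% of 13629 genes passed (3 members and 1204 genes at an unadjusted p under 0.05; DESeq2 0, voom 0), with a median of -0.03 (-0.065 to 0.045 on leaving out 1 mouse). Slc6a11 had the largest change (-0.51 ± 0.26 SE, edgeR adjusted p = 0.578), with 97.7, 105 and 133 CPM under upACSS2 (6 mice) and 96.7, 322, 121, 137 and 96.4 under vector, where replicate 2 stood alone and without which the log2 fold change was -0.05. Fabp7 followed with 12.3, 20.5 and 26.1 CPM against 33.8, 43.5, 25.2, 18.3 and 23.3 (-0.49 ± 0.20 SE). Gjb2 had a log2 fold change of -0.37 ± 0.30 SE, and all 7 tested fibroblast and meningeal genes were lower (median -0.47, none called).

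In PS19 mice 1 month after injection 0% of 15850 genes and no member passed for upACSS2 against vector (0 members and 463 genes at an unadjusted p under 0.05; DESeq2 0, voom 0), with a median of 0.06 (-0.021 without upACSS2 mouse 3, to 0.13 without upACSS2 mouse 2). At 6 months again 0% and no member passed (3 members and 2237 genes at an unadjusted p under 0.05; DESeq2 0, voom 0), with a median of -0.05 (-0.09 without upACSS2 mouse 3, to 0.074 without vector mouse 3). At 6 months Hes5 read 5.53, 4.84, 4.61, 3.15 and 6.23 CPM under upACSS2 and 3.09, 4.64, 2.34, 2.89 and 1.88 under vector (0.71 ± 0.24 SE, edgeR adjusted p = 0.229), and Atp1b2 422, 415, 304, 489 and 394 against 498, 393, 675, 626 and 501 (-0.41 ± 0.13 SE, edgeR adjusted p = 0.2). Both pairs of groups overlapped.

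The only calls in mice were between the PS19 time points. Under vector, 6 months against 1 month, 3 of 31 members passed, where 7.46% of all genes were called, so the count alone does not set the members apart. The median was 0.13, and 0.0014 without 6-month mouse 3, the highest of its group for 23 members; without any other mouse it was at most 0.16. Atp1b2 rose, from 306, 319, 339.6, 331 and 387 CPM at 1 month to 498, 393, 675, 626 and 501 at 6 months (0.68 ± 0.13 SE, edgeR adjusted p = 0.00511), with no overlap, and it passed in all 16 alternative fits. Fabp7 fell, from 50.1, 39.5, 35.5, 40.7 and 52.2 to 26.9, 21.9, 19.3, 37.6 and 23.5 CPM (-0.75 ± 0.21 SE, edgeR adjusted p = 0.0325), and Hes5 fell, from 5.47, 3.70, 4.90, 7.27 and 4.87 to 3.09, 4.64, 2.34, 2.89 and 1.88 CPM (-0.82 ± 0.24 SE, edgeR adjusted p = 0.0444). Each of the last 2 had overlapping mice. Fabp7 no longer passed without 1-month mouse 1 or 2 or 6-month mouse 2, 3 or 5, and Hes5 without 1-month mouse 1, 3 or 4 or 6-month mouse 1, 3, 4 or 5. The members called then numbered 1 to 3. With the replicate number as a block Atp1b2 passed (edgeR adjusted p = 0.0111), and Fabp7 and Hes5 did not (edgeR adjusted p of 0.0577 and 0.0673). The treatment field of 1-month mouse 5 names upACSS2, and without it all 3 passed (edgeR adjusted p of 0.00509, 0.0491 and 0.0459 for Atp1b2, Fabp7 and Hes5). Age and time after injection are the same contrast here. In it 7 of 42 further astrocyte genes rose (Thbs4 1.10, the urea transporter Slc14a1 1.06) and none fell, and 2 of 14 microglia genes rose (median 0.58).

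Under upACSS2 the same time contrast called no member, with 0.0442% of all genes called (1 member and 13.7% of all genes at an unadjusted p under 0.05; DESeq2 and voom 0) and a median of 0.04 (-0.035 without 6-month mouse 3, to 0.10 without 1-month mouse 3). Its 1-month group is the one labelled whole hippocampus. Mfge8 had the largest change (0.45 ± 0.13 SE, edgeR adjusted p = 0.185), from 104, 94.3, 127, 86.3 and 95.2 to 154, 156, 113, 130.1 and 138 CPM. The difference of the 2 time effects passed for no member, with 0% of 15850 genes called (5 members and 1956 genes at an unadjusted p under 0.05; DESeq2 and voom 0), so the calls under vector are not shown to be particular to it. Hes5 had the largest difference (0.86 ± 0.34 SE, edgeR adjusted p = 0.366). Ependymal and choroid plexus genes ranged from 28.6 to 6052 CPM summed over 9 genes among the 55 hippocampal libraries, and their part in the members' levels was not tested.

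Counting limits bear on some members. Exons of 4 members share at least 10% of their bases with a gene on the opposite strand: Hes5 (31.8%, with Gm20421), Slc7a10 (17.9%, with Lrp3), Fgfr3 (13.9%) and Aldh1l1 (11%). Whether counting used strand is not given in the sources used here, and without strand the reads of such a pair cannot be told apart. Gjb6 and Gjb2 on day 9 of culture, and Gjb2 in all cultures, rest on few counts.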

How the data were processed

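RNA from mouse hippocampal cultures and hippocampus was sequenced, and the authors deposited 6 tables of raw counts per gene symbol (98 libraries). The submitters' processing notes name STAR, featureCounts, HTSeq, DESeq2 and the build mm10, with neither versions nor roles. Groups follow the sample titles. The 31 members and the other gene lists were chosen with earlier results of these data known. Here each table was scaled by TMM and tested with edgeR 4.0.16 (R 4.3.3; quasi-likelihood, genes filtered by filterByExpr, Benjamini-Hochberg over all genes tested, threshold 0.05, two-sided), with standard errors taken from the F statistic. The mean log2 CPM over members used a prior count of 2. Rows with no symbol held 6.13% to 8.74% of counts in the no-virus table and 0% elsewhere, and were left out. Total counts per library ran from 5683314 to 29890248 (no virus), 14603730 to 33960722 (unstimulated), 18804544 to 39985460 (stimulated), 11436140 to 28161314 (aged), 5075099 to 10839489 (10 months) and 6910945 to 33259982 (PS19). The edgeR fit was tested on simulated counts for some of the comparisons before the real fits. The other steps and the alternative fits had no such test.

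Named members were, per comparison, up to 6 called ones of largest change, or up to 3 where none was called, leaving out members whose average log2 CPM was under 1; Gjb2, which was under it on day 21 of culture, was added after its values were seen. Alternatives were DESeq2 1.42.0, its size factors, no filter, limma 3.58.1 (voom with sample weights), other sets of libraries, a replicate block and leaving out replicates. Same-numbered samples deviated together, with all 3 pairs above 0.1, in the no-virus tau comparison (correlations 0.22 to 0.39), stimulated vector tau against PBS (0.12 to 0.33) and stimulated tau, upACSS2 against vector (0.11 to 0.36). The other comparisons did not meet that rule, which does not show their samples to be unrelated. Pairs ran from -0.014 to 0.54 for tau in day 21 vector cultures and from 0.020 to 0.26 for upACSS2 with tau on day 21. Exon lengths and loci came from GENCODE on GRCm38 and promoters from RefSeq on GRCm38.p6.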

Additional observations from a re-analysis of the deposited data

Results flagged for a closer look

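Among 43 groups of values checked for a sample far from the others, of which chance marks about 1 in 20, 3 had one. Only groups of 4 to 10 samples were checked, so the culture groups of 3 and the aged groups of 12 were not. The mean log2 CPM of the 31 genes was 7.38 in replicate 2 of the 10-month vector mice, above the 6.93 to 6.98 of the other 4. In the same mouse the GABA transporter Slc6a11 read 322 CPM, against 96.4 to 137 in the others. Ppp1r3c, the glycogen-targeting subunit, read 112 CPM in replicate 3 of the PS19 upACSS2 mice at 1 month, the library that was highest of its group for 27 of the 31 genes.

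For 5 members the effect of tau differed between the no-virus culture and the stimulated vector culture in a test of the difference, by 1.62 on the log2 scale for Aldh1l1, 3.20 for Gjb6, 3.36 for Slc25a18, 1.29 for Ppp1r3c and 2.27 for Slc7a10. This pair of cultures was chosen because earlier results of these data had shown opposite signs, and leaving out 1 library gave 0 to 16 calls. Virus, stimulation, table and culture batch cannot be told apart in this test.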

How the results depend on the processing

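Counts of members called moved with the tool. The shares of all genes that these alternative fits called are not given, so no count below can be set against its share. DESeq2 called 2 members for tau in the no-virus culture, 0 in both day 9 comparisons that called 1, 1 for tau in upACSS2 cultures on day 21, 4 for upACSS2 with PBS on day 21, 9 for tau in stimulated vector cultures, 2 and 5 for upACSS2 in stimulated cultures with PBS and with tau, and 9 for the difference between the no-virus and stimulated cultures. Voom called 3 for tau without virus, 2 for tau in day 9 upACSS2 cultures, 0 for upACSS2 with tau on day 9, 15 for tau in stimulated vector cultures, 5 and 2 for upACSS2 in stimulated cultures with PBS and tau, and 15 for the difference between cultures. Without the filter on low counts edgeR called 12 (day 9 vector tau), 6 (day 9 upACSS2 tau), 2 (day 9 upACSS2 with tau), 5 (stimulated vector tau) and 2 (stimulated upACSS2 with tau). With all 24 unstimulated libraries in the fit it called 0 in all 4 day 9 comparisons, 10 for upACSS2 with PBS and 1 for upACSS2 with tau on day 21. With only the groups compared it called 3 for tau in day 9 upACSS2 cultures, 0 for upACSS2 with tau on day 9 and 0 for stimulated vector tau.

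With the replicate number as a block, edgeR called 2 for tau in day 9 upACSS2 cultures, 2 for upACSS2 with tau on day 9, 1 and 2 for upACSS2 in stimulated cultures with PBS and tau, and 2 for the stimulated difference of tau effects; other counts stayed within 1.5 times. Leaving out 1 library gave 0 to 11 members for tau in day 9 vector cultures, 0 to 1 in day 9 upACSS2 cultures, 3 to 7 for upACSS2 with PBS and 0 to 1 with tau on day 9, 0 to 8 for stimulated vector tau, 0 to 4 for stimulated upACSS2 with tau, 1 to 3 for PS19 vector mice over time and 0 to 16 for the difference between cultures. It gave medians of -0.77 to -0.013 for tau in day 21 vector cultures, -0.84 to -0.13 for upACSS2 with PBS on day 21 and 0.83 to 1.53 for day 21 against day 9 with vector and PBS. Of 1271 alternative values for 93 results on named members, 1124 kept direction and side of the threshold, 129 lost the call, 16 gained one and 2 changed sign: Gja1 for tau in day 21 vector cultures (0.12 without PBS replicate 3, and -1.53 to 0.12 over all left-out libraries) and Ndrg2 in aged mice (0.037 with replicates 1 to 3 alone). The cause of these moves was not tested.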

Other observations

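Other glial programmes moved beside the 31 genes between day 9 and day 21. Of 16 transcription factors of the astrocyte lineage, 8 to 11 rose and 5 fell in each of the 4 comparisons, where 52.6% to 57.7% of all genes were called. Their median log2 fold changes were 0.36 to 0.75. Their summed level was 1787 to 2230 CPM on day 9 and 1128 to 1590 in unstimulated day 21 cultures, so here too the sum and the median differ in direction. Id3, an inhibitor of basic helix-loop-helix factors, rose by 2.01 to 2.33 on the log2 scale and Id1 by 1.76 to 2.52, while Nfix, a nuclear factor of gliogenesis, fell by 1.39 and 1.46 in vector cultures with PBS and with tau. Genes of neural progenitors and radial glia summed to 1052 to 1306 CPM on day 9, to 255 to 647 in unstimulated day 21 cultures and to 72.2 to 127 in hippocampus. Of the 10 tested genes of that list 2 fell from day 9 to day 21 in all 4 comparisons, Dcx, a microtubule protein of young neurons, by 2.86 to 3.25 and Sox11 by 1.93 to 2.34 on the log2 scale, while 2 to 5 rose and the median was 0.39 to 0.92, so the sum and the median differ in direction. Mature oligodendrocyte genes summed to 37.6 to 47.3 CPM on day 9, 202 to 1339.6 on day 21 and 3446 to 9155 in hippocampus.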
